A study of Zea mays with 4 samples.

Results

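The transcripts described here were the 150 nuclear genes with the highest read counts in 1 library of whole maize leaf, Leaf 2. They were chosen by their measured counts in that library, among 46009 ranked nuclear genes of 46430 genes counted in all. Plastid and mitochondrial genes were not ranked, and 13 further abundant genes, among them the main C4 enzymes and the Rubisco small subunits, were left out of the ranking. Because the Leaf 2 counts chose the genes, every Leaf 2 value below is a description. Tests used Leaf 1, which had no part in the choice but is a pool of the same tissue.

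The study compared protoplasts with whole leaf by bulk RNA sequencing of polyA RNA. Protoplast 1 and Protoplast 2 were pools of cells released by cell wall digestion, and Leaf 1 and Leaf 2 were pools of ground segments of the same part of the leaf. By the methods, the leaf pools were ground when the tissue for protoplasts was harvested. The protoplast tissue was then scored and spent hours in pretreatment, enzyme solution and washes. All 4 pools came from the distal end of the second leaf of V2 seedlings of the inbred line B73. The labels and the protoplast methods give 6 plants for each protoplast pool, while the bulk RNA methods give 4 leaves for each pool of either kind. Each pool was 1 library. The test held Leaf 1 and both protoplast pools, so its p-values measure the spread between the protoplast pools only. Library totals were 47061988 counts in Protoplast 1, 42815615 in Protoplast 2 and 41792981 in Leaf 2. The copy of the Leaf 1 counts used here ends within chromosome 3 and holds 18609 genes that could be matched to the other libraries, 51 of the 150 genes among them. The other 99 had values in Protoplast 1, Protoplast 2 and Leaf 2 and no test.

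Maize fixes carbon by the C4 pathway, which is divided between 2 photosynthetic cell types. Mesophyll cells capture carbon dioxide into C4 acids and have much photosystem II, whereas bundle sheath cells around the veins release it again for Rubisco and the Calvin cycle and have little photosystem II. Most proteins of the photosynthetic machinery are encoded in the nucleus and imported into the chloroplast, and their mRNAs are among the most abundant in a green leaf.

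Markers of the leaf's cell types differed in level between the samples. The summed level of 6 mesophyll genes of the C4 pathway was 65962 and 62447 CPM (counts scaled to a fixed library total) in Protoplast 1 and 2, against 71298 CPM in Leaf 2. The summed level of 12 bundle sheath genes was 1315 and 1177 CPM in Protoplast 1 and 2, against 36845 CPM in Leaf 2. The sucrose transporters SUT1 and SWEET13a, b and c, genes of the veins and abaxial bundle sheath, lay between 0.117 and 5.86 CPM in the protoplasts and between 51.8 and 365 CPM in Leaf 2. The part of this shift in the results below was not tested. In bulk samples, fewer cells of a type and less RNA per cell cannot be told apart. The hours of incubation and the wounding of the tissue differ between the groups as well and cannot be told apart from these.

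The 150 genes took a smaller share of the protoplast libraries than of the leaf. They held 24.3% of all counts in Protoplast 1 and 20.8% in Protoplast 2, against 34.6% in Leaf 2. The 10 highest of them held 6.08% and 4.93% in the protoplasts and 8.38% in Leaf 2. The 95% Wilson interval of the Leaf 2 share was 34.59% to 34.62%, which covers counting error only. Over the genes counted in all 4 libraries, the 51 genes found in Leaf 1 held 26.2% of Protoplast 1 and 22.4% of Protoplast 2, against 35.8% of Leaf 1 and 36.2% of Leaf 2. Both protoplast pools therefore lay below both leaf pools, and the leaf library that was not used for the choice gave nearly the share of the one that was. By the rule, no other 150 ranked genes hold a larger share of Leaf 2. A smaller share in the protoplasts is therefore partly set by the choice. The 150 highest ranked genes by each protoplast pool's own counts held 29.5% of Protoplast 1 and 28.1% of Protoplast 2. Plastid genes held 1.91% and 3.66% of Protoplast 1 and 2, against 1.02% of Leaf 2, and mitochondrial genes held 0.612% and 1.43%, against 0.431%.

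**Figure D1:**
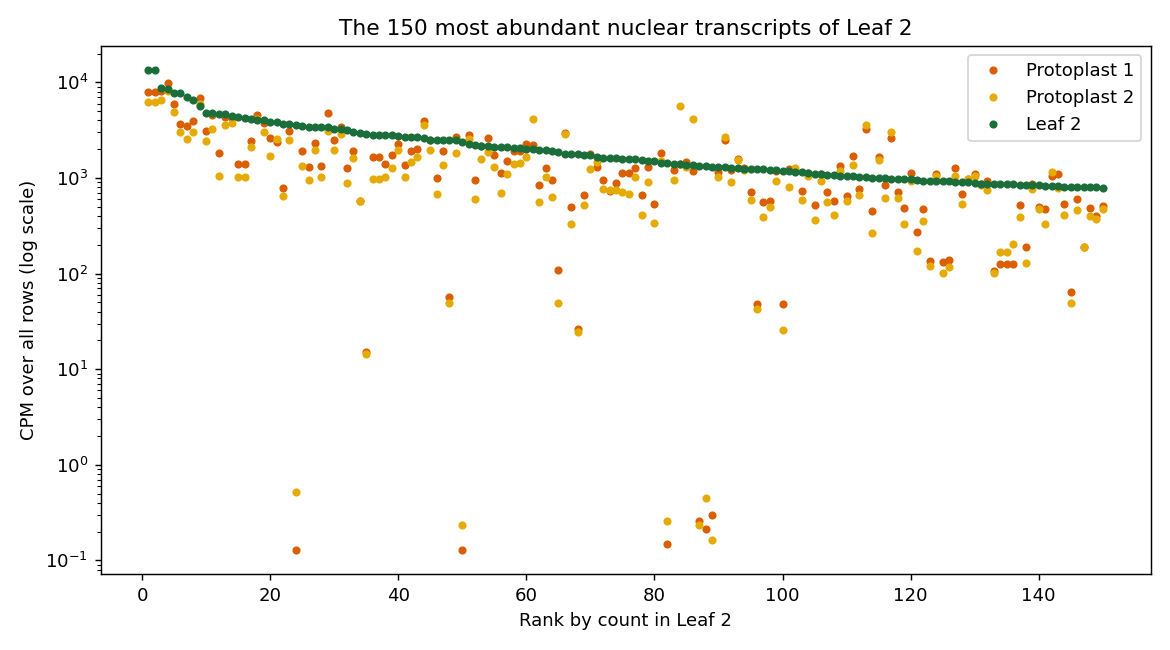
Level of each of the 150 genes in Protoplast 1, Protoplast 2 and Leaf 2 (CPM over all genes, log scale) by its rank in Leaf 2, 1 point per gene and library. Most protoplast points lie near or below the Leaf 2 points, 13 genes lie over 10-fold below them, and 6 of these have at most 22 counts in either protoplast pool.

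The ranking held in the second leaf pool and less so in protoplasts. Of the 51 genes counted in Leaf 1, 50 were among the 51 highest of Leaf 1. The log2 ratio of Leaf 2 over Leaf 1 had a median of 0.03 and ran from -0.28 to 0.20. Of the 150 genes, 97 were among the 150 highest of Protoplast 1 and 82 among those of Protoplast 2. All of the 82 were also in the list of Protoplast 1, and 53 genes were in neither list. At the edge of the ranking, the genes at ranks 146 to 150 had 33462 to 33128 counts in Leaf 2, and those at ranks 151 to 155 had 32508 to 30604. Rank 150 was Zm00001d039142, a solanesyl diphosphate synthase, with 33128 counts, and rank 151 was Zm00001d007597, with 32508.

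**Figure D2:**
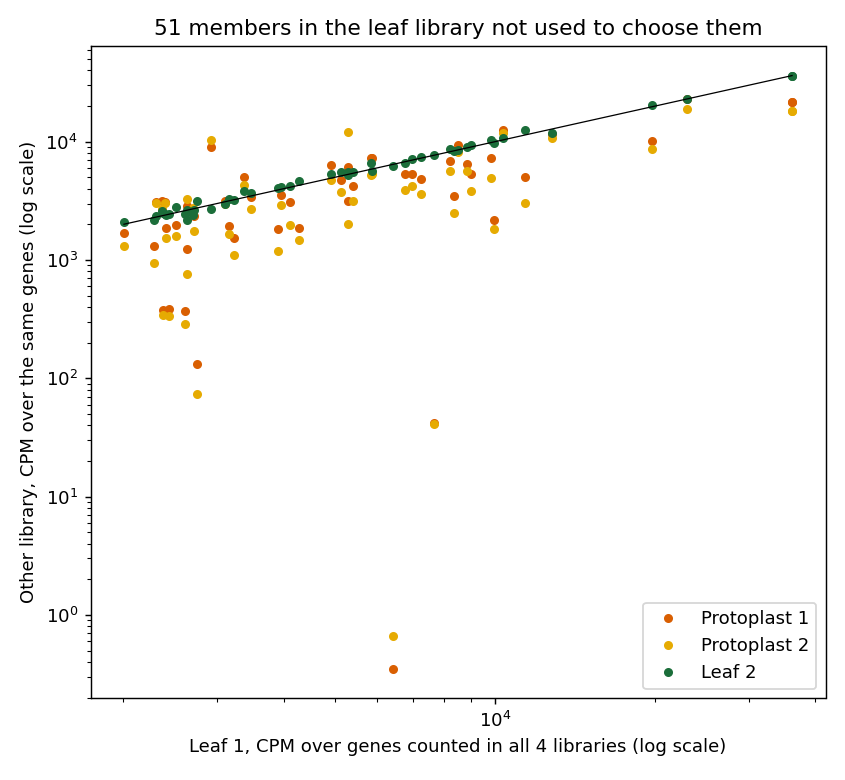
The 51 genes counted in Leaf 1, with their Leaf 1 level on the horizontal axis and their level in Protoplast 1, Protoplast 2 and Leaf 2 on the vertical axis (CPM over genes counted in all 4 libraries, both axes log scale; the line marks equal levels). The Leaf 2 points follow the line, and most protoplast points lie below it, the lowest being Zm00001d023516 at 0.352 CPM in Protoplast 1 and 0.668 CPM in Protoplast 2, against 6430 CPM in Leaf 1.

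Of the 51 genes counted in Leaf 1, 14 passed the test between protoplasts and that library. By edgeR's quasi-likelihood test 1 was higher and 13 were lower in protoplasts, and 37 were not called, where a call needed an adjusted p of at most 0.05 and a change of over 2-fold. Among all 9240 genes tested, 39.7% were called, 18.3% as higher and 21.4% as lower. Of the 51 genes, 27.5% were called, 1.96% as higher and 25.5% as lower. The 51 genes had a median log2 fold change of -0.30, against -0.03 for all genes tested. With library totals in place of TMM scaling these medians were -0.55 and -0.28, so CPM values below, which carry no TMM factor, sit lower in protoplasts than the fold changes beside them. With 1 leaf library in this test, that library is assumed to vary like the protoplast pair. Leaf 1 ranked these genes nearly as Leaf 2 did, so a lean to lower values in protoplasts is partly set by the choice. The genes at ranks 151 to 300 leaned alike. Of 58 counted in Leaf 1, 1 was higher and 13 were lower, with a median log2 fold change of -0.32. Nothing is read from the lean of the 51 genes beside all genes tested.

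**Figure D3:**
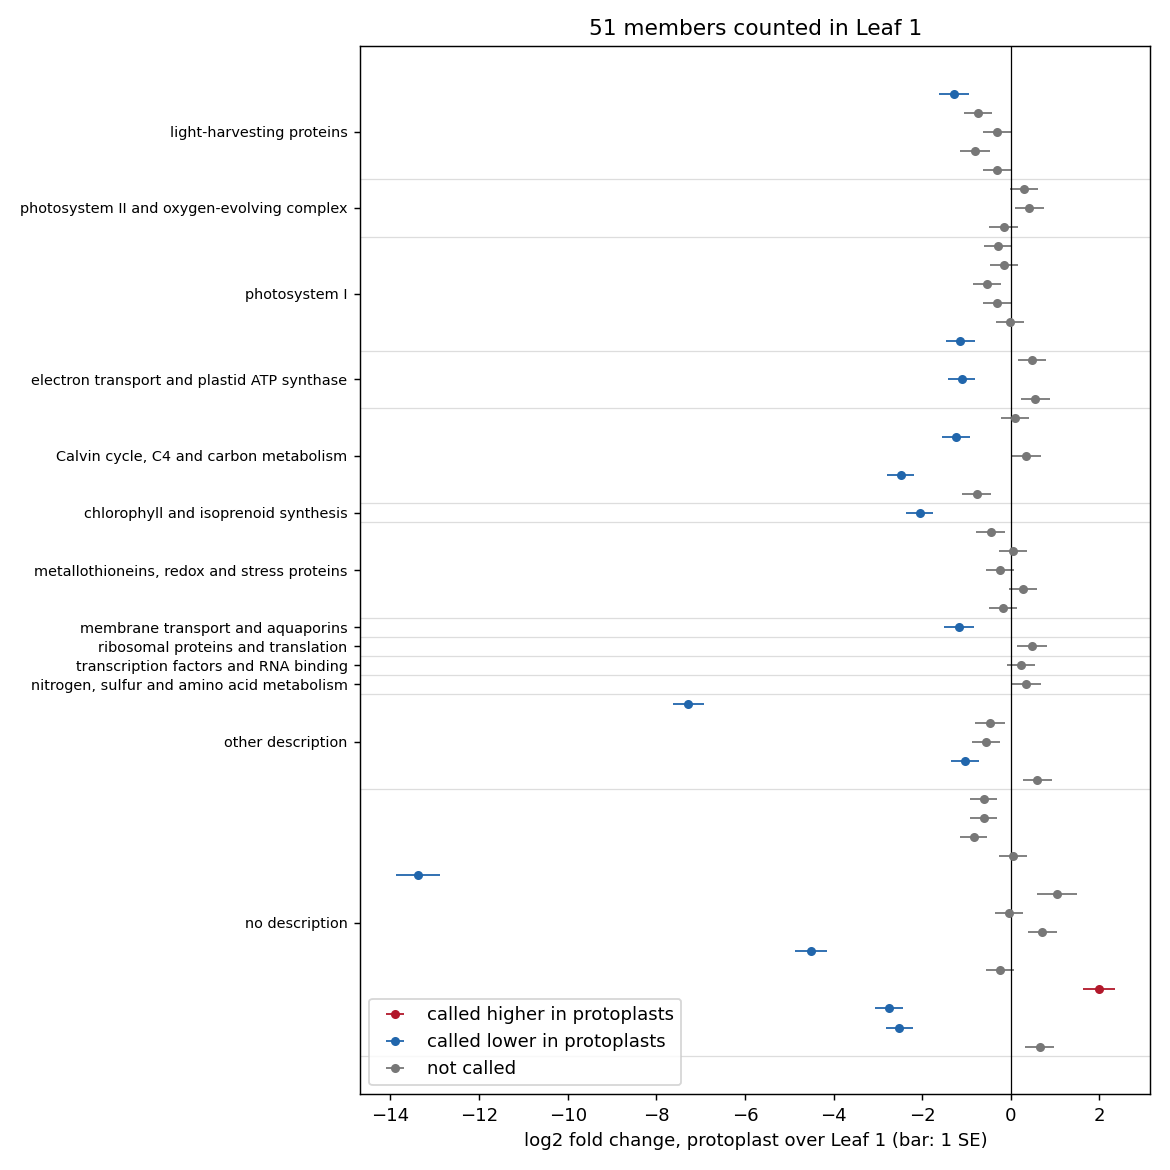
Log2 fold change of protoplasts over Leaf 1 for the 51 genes counted in Leaf 1, by functional group, 1 point per gene with a bar of 1 standard error from edgeR. The 13 genes called lower run from -1.04 to -13.37, and the gene called higher lies at 1.98.

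Against Leaf 2, with no test, 112 of the 150 genes had lower CPM in both protoplast pools, 21 had higher CPM in both and 17 lay on different sides. Among 21876 ranked genes with at least 10 counts in Leaf 2, 64.4% were lower in both and 27.0% higher in both. Over 2-fold below Leaf 2 in both pools were 47 genes, or 31.3%, and over 2-fold above were 2, or 1.33%. Among the same ranked genes 30.2% were over 2-fold below and 10.9% over 2-fold above. The rule used this contrast, so nothing is read from these shares. They also depend on the scaling: with TMM factors of the 3 complete libraries in place of totals, 94 genes were below Leaf 2 in both pools and 41 above, 35 were over 2-fold below and 5 over 2-fold above.

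Of the 150 genes, 104 have a description in the study's tables and 46 have none. The descriptions came first from the study's lists of single-cell cluster markers and of genes enriched or depleted in protoplasts. Functional groups were formed by words in these descriptions. Light-harvesting proteins, photosystem subunits, electron carriers and the plastid ATP synthase together made up 50 genes, with 11.8% and 9.28% of Protoplast 1 and 2, against 15.4% of Leaf 2.

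**Figure D4:**
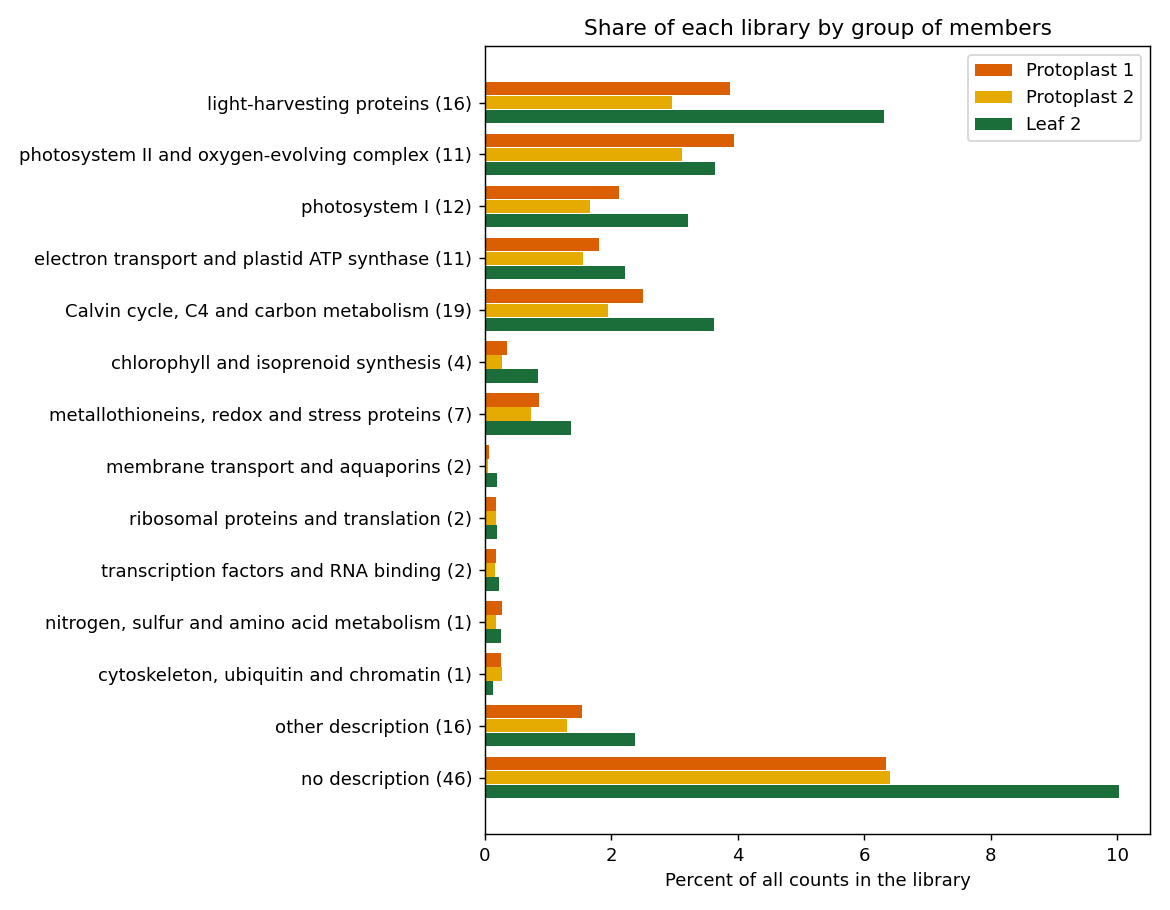
Percent of all counts of Protoplast 1, Protoplast 2 and Leaf 2 held by each functional group, with the number of genes in parentheses and 1 bar per library. Light-harvesting proteins stand at 3.88% and 2.95% in the protoplasts and 6.32% in Leaf 2, whereas photosystem II stands at 3.95% and 3.12%, against 3.64%.

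Light-harvesting chlorophyll a/b-binding proteins, which gather light for the 2 photosystems, were the described group with the highest share of Leaf 2. All 16 of them had lower CPM in both protoplast pools than in Leaf 2, and 14 of the 16 did with TMM factors. Of all 150 genes 112 did, and 94 with TMM factors, and of ranked genes with at least 10 counts in Leaf 2 64.4% did in CPM. The median log2 ratio of the 16 to Leaf 2 was -0.85, and -0.53 with TMM factors, against -0.77 and -0.44 for all 150. Zm00001d021435, chlorophyll a-b binding protein 1, had 5904 and 4963 CPM in Protoplast 1 and 2, against 7788 CPM in Leaf 2. Zm00001d046786, a chlorophyll-binding protein of photosystem I, had 3512 and 2578 CPM in the protoplasts and 7000 CPM in Leaf 2. Zm00001d039040, light harvesting complex mesophyll7, had 3956 and 3019 CPM, against 6517 CPM in Leaf 2. Zm00001d011285, an antenna protein of photosystem II, had 3102 and 2420 CPM, against 4813 CPM in Leaf 2. For each of these genes both protoplast pools were below Leaf 2 under either scaling. In the test against Leaf 1, 1 of 5 light-harvesting genes fell and 4 were not called. The gene that fell was Zm00001d032197, chlorophyll a-b binding protein 4, with 5004 and 3002 CPM over shared genes (those counted in all 4 libraries) in Protoplast 1 and 2, against 11395 CPM in Leaf 1 and 12478 CPM in Leaf 2. Its log2 fold change was -1.28 ± 0.34 (SE; edgeR adjusted p = 0.00749).

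Photosystem II and its oxygen-evolving complex split water and pass electrons into the chain. This group of 11 genes had a median log2 ratio to Leaf 2 of -0.04, or 0.28 with TMM factors, and 0 of the 3 counted in Leaf 1 were called. Zm00001d036535, the 33 kDa subunit of the oxygen-evolving complex, was the most abundant of the 150 in both protoplast pools, with 9810 and 8119 CPM, against 8534 CPM in Leaf 2. Zm00001d049387, photosystem II3, had 6875 and 6015 CPM in the protoplasts and 5630 CPM in Leaf 2. Zm00001d021763, photosystem II subunit29, had 4526 and 3295 CPM, against 4748 CPM in Leaf 2. In CPM the pools lay on both sides of Leaf 2 for the 33 kDa subunit (Zm00001d036535), above it for photosystem II3 and below it for subunit29 (Zm00001d021763). With TMM factors both pools were above Leaf 2 for the 33 kDa subunit, at log2 ratios of 0.49 and 0.33 in Protoplast 1 and 2, and on both sides of it for subunit29, at 0.22 and -0.13. Members of the group were not alike: Zm00001d014564, a second gene for oxygen-evolving enhancer protein 1, had 846 and 561 CPM in the protoplasts and 1955 CPM in Leaf 2. It was named after its values were seen.

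Photosystem I passes electrons to ferredoxin. All 12 of its genes had lower CPM in both protoplast pools than in Leaf 2, with a median log2 ratio of -0.71. With TMM factors 11 of the 12 did, with a median of -0.37. Of all 150 genes 112 had lower CPM in both pools, and 94 were lower with TMM factors, with medians of -0.77 and -0.44. Of ranked genes with at least 10 counts in Leaf 2, 64.4% had lower CPM in both. Zm00001d018797, photosystem I reaction center6, had 4306 and 3587 CPM in Protoplast 1 and 2, against 4727 CPM in Leaf 2. It was the exception under TMM, with a log2 ratio of 0.15 in Protoplast 1. Zm00001d008706, subunit XI, had 1299 and 964 CPM, against 3433 CPM in Leaf 2. Zm00001d034543, subunit II-1, had 6471 and 5666 CPM over shared genes in the protoplasts and 8857 CPM in Leaf 1 and 9020 CPM in Leaf 2, and was not called (log2 fold change -0.30 ± 0.31, SE). Of 6 genes in the test, 1 fell: Zm00001d039687, a second subunit XI gene, at -1.14 ± 0.33 (SE; edgeR adjusted p = 0.012). Between Protoplast 1 alone and both leaf pools it was at -0.93, under the fold limit. Zm00001d005446, subunit IV A, had the smallest change of all 51, at -0.02 ± 0.32 (SE).

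Electron carriers and the plastid ATP synthase made up 11 genes. Zm00001d035859, plastocyanin homolog1, the copper protein that feeds photosystem I, had 2434 and 2090 CPM in the protoplasts and 4122 CPM in Leaf 2. Zm00001d042049, a ferredoxin, had 12475 and 11842 CPM over shared genes in Protoplast 1 and 2, against 10357 CPM in Leaf 1 and 10730 CPM in Leaf 2. Both its protoplast values were above both leaf values, but the log2 fold change of 0.48 ± 0.32 (SE) was not called. Zm00001d021620, ATP synthase chloroplast subunit2, had 1398 and 1017 CPM in the protoplasts and 2808 CPM in Leaf 2. Zm00001d011833, a leaf ferredoxin-NADP reductase, which makes NADPH, was among the genes with the highest ratio to Leaf 2 of those not counted in Leaf 1, at 2973 and 2914 CPM, against 1805 CPM. Of the 3 genes in the test, 1 fell, the NDH subunit Zm00001d024148, which belongs to the complex of cyclic electron flow (-1.11 ± 0.31, SE; edgeR adjusted p = 0.0102).

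The 19 genes of carbon metabolism had log2 ratios to Leaf 2 between -6.11 and 0.33, with a median of -0.84, or -0.51 with TMM factors. For all 150 genes these medians were -0.77 and -0.44. Zm00001d027488, glyceraldehyde phosphate dehydrogenase B1 of the Calvin cycle, had 22715 and 18721 CPM over shared genes in Protoplast 1 and 2, against 22959 CPM in Leaf 1 and 23137 CPM in Leaf 2. Protoplast 1 was close to the leaf pools and Protoplast 2 below them, and the change was not called (0.10 ± 0.31, SE). Zm00001d038579, a phosphoglycerate kinase, had 1927 and 1609 CPM in the protoplasts and 3040 CPM in Leaf 2. Zm00001d039258, the triose phosphate/phosphate translocator that exports sugar phosphates from the chloroplast, fell to 3484 and 2517 CPM over shared genes in the protoplasts, against 8386 CPM in Leaf 1 and 8314 CPM in Leaf 2 (-1.24 ± 0.32, SE; edgeR adjusted p = 0.0059). Zm00001d028562, a fructose-1,6-bisphosphatase, had 376 and 339 CPM in the protoplasts, against 2374 CPM in Leaf 1 and 2479 CPM in Leaf 2, and fell by 2.48 ± 0.30 on the log2 scale (SE; edgeR adjusted p = 2.3e-05).

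Several enzymes of the Calvin cycle had low levels in the protoplasts, but the 19 genes of carbon metabolism were not alike. With TMM factors 11 of the 19 were below Leaf 2 in both pools, 6 of them over 2-fold. Another 5 were above it in both pools, and 3 lay on different sides. Rubisco activase2, Zm00001d048593, which keeps Rubisco active, had 56.3 and 49.1 CPM in Protoplast 1 and 2, against 2507 CPM in Leaf 2. Sedoheptulose-17-bisphosphatase, Zm00001d042840, had 48.2 and 42.7 CPM, against 1242 CPM in Leaf 2. Transketolase 1, Zm00001d045451, had 105 and 102 CPM, against 870 CPM in Leaf 2. These 3 genes are on the list of 12 bundle sheath genes whose sums are given above. Zm00001d017711, a phosphoribulokinase that makes the substrate of Rubisco, had 26.3 and 24.7 CPM, against 1762 CPM in Leaf 2. It is outside the naming rule and was named after its values were seen. In these 4 genes the protoplast pools were close to each other and over 2-fold below Leaf 2, and none of the 4 was counted in Leaf 1.

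The 4 genes of chlorophyll and isoprenoid synthesis included 3 that were over 2-fold below Leaf 2 in both pools, or 2 with TMM factors. Among ranked genes with at least 10 counts in Leaf 2, 30.2% were over 2-fold below. The remaining gene, Zm00001d048373, was above Leaf 2 in both pools, at log2 ratios of 0.61 and 0.55 with TMM factors. The solanesyl diphosphate synthase Zm00001d039142, placed by its words among other descriptions, was at -0.35 and -0.36 with TMM factors. Zm00001d026603, the ChlH subunit of magnesium chelatase, which puts magnesium into the chlorophyll precursor, fell to 2185 and 1845 CPM over shared genes in the protoplasts, against 9965 CPM in Leaf 1 and 9765 CPM in Leaf 2 (-2.06 ± 0.30, SE; edgeR adjusted p = 0.000115). Zm00001d008230, the cyclase acting later in the same pathway, had 500 and 330 CPM in Protoplast 1 and 2, against 1798 CPM in Leaf 2. Zm00001d018034, geranylgeranyl hydrogenase1, which makes the tail of chlorophyll, had 944 and 626 CPM, against 1919 CPM in Leaf 2.

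Among redox and stress proteins, 0 of 5 genes in the test were called. Zm00001d023376, aluminum-induced protein homolog1, had 7286 and 4890 CPM over shared genes in the protoplasts, against 9816 CPM in Leaf 1 and 10229 CPM in Leaf 2. Zm00001d053675, lipoxygenase10, an enzyme of fatty acid oxidation, had 2404 and 2550 CPM, against 3812 CPM in Leaf 2. Zm00001d048611, metallothionein-like protein 1B, was far below Leaf 2, with 108 and 49.7 CPM in the protoplasts and 1867 CPM in Leaf 2. Zm00001d041804, thioredoxin M2, was among the 3 smallest changes, at 0.05 ± 0.32 (SE), and turned to -0.19 with library totals in place of TMM scaling.

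Smaller groups held 1 or 2 genes each. The aquaporin Zm00001d002690, plasma membrane intrinsic protein1, fell to 1241 and 757 CPM over shared genes in the protoplasts, against 2634 CPM in Leaf 1 and 2664 CPM in Leaf 2 (-1.16 ± 0.34, SE; edgeR adjusted p = 0.0126). Between Protoplast 1 alone and both leaf pools its change was -0.90 and did not pass the limit. Glucose-6-phosphate/phosphate translocator 2, Zm00001d021653, had 126 and 205 CPM, against 857 CPM in Leaf 2. Zm00001d017092, an elongation factor Tu of translation, had 739 and 583 CPM, against 1148 CPM in Leaf 2. Zm00001d002822, elongation factor G of the chloroplast, had 2879 and 3279 CPM over shared genes in the protoplasts, against 2639 CPM in Leaf 1 and 2173 CPM in Leaf 2, and was not called (0.48 ± 0.33, SE). Zm00001d031168, a glycine-rich RNA-binding protein, had 3128 and 2987 CPM over shared genes in the protoplasts, against 3102 CPM in Leaf 1 and 2972 CPM in Leaf 2, with overlapping groups. Zm00001d046925, CONSTANS-LIKE 5, had 649 and 578 CPM, against 1050 CPM in Leaf 2. Zm00001d003157, an S-adenosylmethionine decarboxylase of polyamine synthesis, had 7343 and 5237 CPM over shared genes, against 5838 CPM in Leaf 1 and 6562 CPM in Leaf 2. Zm00001d015327, ubiquitin1, the tag of protein breakdown, was higher in both pools, with 2522 and 2702 CPM, against 1289 CPM in Leaf 2.

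Among genes with other descriptions, the RETICULATA-RELATED 4 gene Zm00001d042050 stood far below the leaf. It fell to 41.9 and 41.1 CPM over shared genes in the protoplasts, against 7667 CPM in Leaf 1 and 7698 CPM in Leaf 2, a log2 fold change of -7.28 ± 0.36 (SE; edgeR adjusted p = 1.83e-08). Zm00001d035337, GDP-L-galactose phosphorylase 1, an enzyme of ascorbate synthesis, had 1413 and 1018 CPM in the protoplasts, against 4370 CPM in Leaf 2. Zm00001d016134, iron-sulfur protein1, had 2473 and 1985 CPM, against 2522 CPM in Leaf 2. Zm00001d029126, of the heavy metal transport/detoxification family, was the other gene of this group to fall (-1.04 ± 0.32, SE; edgeR adjusted p = 0.0168). Between Protoplast 1 alone and both leaf pools it was at -0.87, under the fold limit.

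The 46 genes without a description held 6.34% and 6.41% of Protoplast 1 and 2, against 10.03% of Leaf 2, and included the extremes in both directions. The 2 most abundant of the ranked genes in Leaf 2, Zm00001d033132 (chromosome 1, 251722257 to 251723494) and Zm00001d033136 (251754657 to 251755894), are near-identical in length and counts. Zm00001d033132 had 21789 and 18038 CPM over shared genes in the protoplasts, against 36169 CPM in Leaf 1 and 35651 CPM in Leaf 2, and was not called (-0.62 ± 0.30, SE). How reads were divided between such copies is not given in the sources used here, so both values are uncertain. The pairs Zm00001d044401 with Zm00001d044402 and Zm00001d016660 with Zm00001d016661 also had equal lengths and counts within 1% in each complete library. Zm00001d003429 had 10047 and 8614 CPM over shared genes in the protoplasts, against 19738 CPM in Leaf 1 and 20378 CPM in Leaf 2. Its change of -0.83 ± 0.31 (SE; edgeR adjusted p = 0.0384) stayed under the fold limit, but with library totals in place of TMM it was -1.08 and passed both limits (edgeR adjusted p = 0.00723).

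Of the 46 genes without a description, 6 were almost absent from protoplasts, with 6 to 22 counts in a pool, against 54556 to 151133 counts in Leaf 2. Together they held 1.14% of Leaf 2. Zm00001d023516 (chromosome 10, 8543363 to 8544872) had 6 and 10 counts in Protoplast 1 and 2, against 117813 counts in Leaf 1 and 98426 counts in Leaf 2. It had the largest decrease in the test, -13.37 ± 0.50 (SE; edgeR adjusted p = 4.71e-09). Zm00001d011813 had 6 and 22 counts, against 151133 counts in Leaf 2, and Zm00001d022516 had 7 and 11, against 60102. Zm00001d022420 had 12 and 10 counts, against 56343 counts in Leaf 2, and Zm00001d022421 had 10 and 19, against 56015. Zm00001d012088, the shortest of the 150 genes at 285 bases, had 14 and 7 counts, against 54556 counts in Leaf 2.

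In the test against Leaf 1, the other large decreases among genes without a description were Zm00001d023343 at -4.50 ± 0.36, Zm00001d034900 at -2.75 ± 0.31 and Zm00001d027841 at -2.52 ± 0.31 on the log2 scale (SE). Their edgeR adjusted p-values were 9.24e-07, 1.11e-05 and 2.09e-05. Zm00001d023343 had 133 and 73.6 CPM over shared genes in the protoplasts, against 2751 CPM in Leaf 1 and 3150 CPM in Leaf 2. Zm00001d032383 was among the smallest changes, at -0.05 ± 0.32 (SE).

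The single increase was Zm00001d028630 (chromosome 1, 41454240 to 41456420), with 8953 and 10337 CPM over shared genes in Protoplast 1 and 2, against 2918 CPM in Leaf 1 and 2701 CPM in Leaf 2 (1.98 ± 0.36, SE; edgeR adjusted p = 0.0006). Zm00001d053838, not counted in Leaf 1, had 2640 and 2996 CPM in the protoplasts and 987 CPM in Leaf 2. In both genes the pools were close to each other and above the leaf.

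A few genes were high in 1 protoplast pool. Zm00001d019605 had 1415 and 5662 CPM in Protoplast 1 and 2, against 1394 CPM in Leaf 2. Zm00001d001139, which lies beside it on chromosome 7, had 1184 and 4110 CPM, against 1355 CPM in Leaf 2. In both, Protoplast 1 was close to Leaf 2 and Protoplast 2 far above it. ENSRNA049465110, named after its values were seen, had 6093 and 11958 CPM over shared genes in the protoplasts, against 5284 CPM in Leaf 1 and 5248 CPM in Leaf 2, and missed the limit on adjusted p (1.05 ± 0.45, SE; edgeR adjusted p = 0.0789). Apart from such genes, 131 of the 150 were lower in Protoplast 2 than in Protoplast 1, with a median log2 ratio of -0.32, against -0.15 for ranked genes with at least 10 counts in Leaf 2. These values use library totals and were not repeated with TMM factors, and the share of ranked genes lower in Protoplast 2 was not counted. The plastid and mitochondrial shares given above were higher in Protoplast 2, and their part in the difference between pools was not tested.

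The rule did not use a gene's length, and levels per length order the genes differently. Of the 150 genes, 114 were also among the 150 highest by counts per kilobase in Leaf 2. Per kilobase, plastocyanin homolog1 (Zm00001d035859) ranked 4 in Leaf 2 and the 33 kDa subunit (Zm00001d036535) ranked 8. Photosystem II3 (Zm00001d049387) had the highest level per kilobase of these 3 genes in protoplasts, with 10200 and 8924 CPM per kilobase in Protoplast 1 and 2, against 8353 in Leaf 2. The median length of the 150 genes was 1236 bases, against 1901 for ranked genes with at least 10 counts in Leaf 2. In the annotation 8 of the 150 genes overlapped another gene, the triose phosphate/phosphate translocator Zm00001d039258 and Zm00001d019605 among them, and the overlapping genes had at most 978 counts in Leaf 2.

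The genes also overlapped a list the rule did not use, the markers of the first mesophyll cluster (MS1) that the study drew from single cells of protoplasts. Of the 150 genes 60 were on it, which is 40.0% of the 150 and 24.3% of the 247 listed genes counted here, whereas 1.09% of ranked genes with at least 10 counts in Leaf 2 were on it. These shares are not matched for abundance. The study states that its single-cell method captures only moderately and highly expressed mRNAs, and the 150 were chosen for high counts. No enrichment is read from the overlap. All 16 light-harvesting and all 12 photosystem I genes were on it, and 10 of 11 photosystem II genes, but 1 of 19 genes of carbon metabolism. Of the 46 genes without a description 3 were on it. Descriptions were read first from marker lists that include this one, so the overlap by group was partly set by how groups were formed. The 24 listed genes in the test had a median log2 fold change of -0.31, and 0 rose and 5 fell. The 27 others in the test had a median of -0.25, and 1 rose and 8 fell.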

How the data were processed

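The authors trimmed paired reads with Trim Galore 0.6.5, used STAR 2.5.1b for alignment to B73 AGPv4 and featureCounts 2.0.1 for counting per gene. The authors deposited these counts without scaling or filtering. The setting for strand and for reads that map to several places is not given in the sources used here. The members and gene lists were chosen with earlier results of these data known. Groups were formed from words in the study's gene descriptions, with 3 word patterns corrected after the descriptions were seen.

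CPM were taken over all rows, or over the 18609 genes counted in all 4 libraries where stated. In the Leaf 1 copy 10 lines were damaged or unmatched. The main test fitted Protoplast 1, Protoplast 2 and Leaf 1 with edgeR 4.0.16 in R 4.3.3 (quasi-likelihood, TMM, filterByExpr, Benjamini-Hochberg adjustment over all genes tested). SE is the log2 fold change over the square root of F. Alternatives were limma 3.58.1 and DESeq2 1.42.0, other scalings, filters, replicate blocks and libraries left out. In the complete libraries 3 counts correspond to 0.0637 to 0.0718 CPM.

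Genes were named by rule: the 10 highest in Leaf 2, the 3 highest of each group, the 6 largest increases and decreases called, the 5 highest and 5 lowest ratios to Leaf 2 outside Leaf 1, the 3 smallest changes, cell type markers and the genes next to rank 150. The other called genes (Zm00001d024148, Zm00001d029126, Zm00001d032197 and Zm00001d039687) were named after their values were seen.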

Additional observations from a re-analysis of the deposited data

How the results depend on the processing

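The 14 calls among the members kept their direction in the fits with all 4 libraries, other scalings, DESeq2, limma-voom and no low-count filter. With at least 10 counts in every library 50 members were tested and 13 of the 14 were called, since that filter removed the remaining one. With library totals and no TMM the median over all genes moved to -0.28 and the members' median to -0.55, with 1 higher and 16 lower. The count of members higher was 2 with all 4 libraries, with DESeq2 and with no low-count filter, the added gene being ENSRNA049465110. Fits with Leaf 2 use the library that chose the members. Leaving out 1 library in turn from the 4 gave 1 to 2 members higher and 10 to 14 lower, with medians from -0.39 (without Protoplast 1) to -0.21 (without Protoplast 2), where 11 of the 14 calls remained (Zm00001d002690, Zm00001d029126 and Zm00001d039687 were under the fold limit at -0.90, -0.87 and -0.93).

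The replicate block called 1731 genes higher and 2029 lower, and 14 members. Same-numbered libraries had a correlation of -0.12 in their deviations over 9017 genes, and the crossed block, added after this was seen, called 1774 higher and 2128 lower, and 14 members. The labels do not say that the numbers pair pools.

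The members' mean share of the protoplast pools and their share of Leaf 2 were 22.5% and 34.6%. Leaf 2 gave 35.1% over nuclear genes. Without the 13 left-out genes the shares were 25.1% and 39.3%, and by counts per kilobase 19.7% and 32.0%. With near-identical pairs counted once, an alternative chosen after seeing the data, Leaf 2 gave 33.5%. When TMM factors of the 3 complete libraries replaced totals, 4 of the 99 genes were over 2-fold above Leaf 2 in place of 1, and their median log2 ratio was -0.46 in place of -0.81. The same scaling of all 150, added after the values were seen, gave 94 below Leaf 2 in both pools in place of 112, 41 above in place of 21, 35 over 2-fold below in place of 47 and 5 over 2-fold above in place of 2.

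Changes near 0 turned sign with no TMM for Zm00001d027488 (-0.15), Zm00001d041804 (-0.19) and Zm00001d031168 (-0.0213). Zm00001d041804 also did so with at least 10 counts in every library (-0.011) and without Protoplast 1 (-0.0431), as did Zm00001d005446 without Protoplast 2 (0.0235). The cause was not tested.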

Other observations

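The next 150 ranked nuclear genes of Leaf 2, at ranks 151 to 300, held 6.28% and 5.61% of Protoplast 1 and 2, against 7.84% of Leaf 2. In the test against Leaf 1, 58 of them were counted, and 1 was higher and 13 were lower in protoplasts, with a median log2 fold change of -0.32. With the 13 left-out genes set aside in the same way, the 150 highest nuclear genes of each protoplast pool held 29.5% of Protoplast 1 and 28.1% of Protoplast 2.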
